A study of Mus musculus with 8 samples.

Results

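Signals of 4 enzymes of sugar and glycerol metabolism, Gapdh, G6pd2, Ldhal6b, and Gk, were compared between normal mouse salivary gland, tumor-adjacent gland, and salivary tumors driven by the CRTC1-MAML2 fusion. They were chosen as the probes whose array annotation carries the RefSeq transcript of 1 of these genes, 4 of the 15 probes named in that way and of 60806 probes in all, each printed as 20 spots per array. Normal glands (N1, N2) came from littermates that did not carry the fusion transgene. Tumor-adjacent glands (NAT1, NAT2) came, by their titles and the study, from the same mice as the tumors T1 and T2, and the tumors T3 and T4 came from separate mice. The transgene places FLAG-tagged CRTC1-MAML2 behind a loxP-flanked stop cassette under a ubiquitous CAG promoter, and was injected into FVB/J zygotes. All mice were offspring of homozygous MMTV-Cre animals, so that the controls carried Cre as well, and the MMTV-Cre line recombines in salivary duct cells. The study characterized mainly its Line 1. The line and the ages of the arrayed mice in particular were not given in the sources used here.

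In glycolysis, glucose is split into 3-carbon sugars that are oxidized to pyruvate, and lactate dehydrogenases reduce pyruvate to lactate. The pentose phosphate pathway draws off glucose 6-phosphate to make NADPH and ribose, and glycerol enters the route once it is phosphorylated. Gapdh, glyceraldehyde 3-phosphate dehydrogenase, catalyzes the oxidative step of glycolysis and is widely used as a reference gene. G6pd2 is an intronless autosomal copy of the X-linked gene for glucose 6-phosphate dehydrogenase, the entry enzyme of the pentose phosphate pathway. Ldhal6b encodes a lactate dehydrogenase A-like protein, and like G6pd2 it is best known from testis. Gk, glycerol kinase, phosphorylates glycerol and is X-linked. The files used here hold no probe sequence, so signal of G6pd2 and Ldhal6b cannot be told apart from that of the related genes G6pdx and Ldha. No other probe was paired with a symbol of these pathways, apart from control probes for PGK1, the glycolytic kinase that acts just after Gapdh, and markers of salivary cell types could not be read.

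The start regions of the 4 genes are shown because CRTC1-MAML2 acts through CREB, the factor that binds the cAMP response element, so that a reader can see whether its letters occur there. RefSeq promoter sequences (GRCm38.p6) were matched for all 4 genes. Each line runs from 120 bases before the annotated start to 20 bases after it, 5′ to 3′, with capitals marking TGACG, the core of the cAMP response element and the TATA box TATAAA, searched on both strands. The regions lie at chr6:125165754-125165893, minus strand (Gapdh), chr5:61808723-61808862, plus strand (G6pd2), chr17:5418748-5418887, minus strand (Ldhal6b), and chrX:85776800-85776939, minus strand (Gk).
Gapdh: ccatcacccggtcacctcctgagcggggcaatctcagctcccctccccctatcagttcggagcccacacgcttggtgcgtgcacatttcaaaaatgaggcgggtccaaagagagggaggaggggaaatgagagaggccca
G6pd2: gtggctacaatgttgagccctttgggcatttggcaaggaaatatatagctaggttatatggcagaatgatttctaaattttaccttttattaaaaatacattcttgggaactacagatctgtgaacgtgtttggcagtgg
Ldhal6b: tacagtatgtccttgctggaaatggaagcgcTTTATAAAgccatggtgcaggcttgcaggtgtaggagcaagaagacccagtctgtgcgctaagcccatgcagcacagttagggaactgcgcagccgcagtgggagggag
Gk: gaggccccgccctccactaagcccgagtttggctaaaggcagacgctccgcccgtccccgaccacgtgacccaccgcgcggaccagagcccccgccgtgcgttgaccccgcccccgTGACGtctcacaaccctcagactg

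In the whole window of 250 bases before to 50 after the start, TGACG was found in 1 of the 4 genes, Gk, where its last base is the first transcribed base, and 20.8% of 32851 mouse promoters held it. The full element TGACGTCA, which contains that core, was found in 0 of the 4, against 1.79% of all promoters. TATAAA occurred only in Ldhal6b, where 1 match on each strand overlapped between 89 and 82 bases before the start and another lay farther upstream, and 13.6% of promoters held it. Base composition of the windows ran from 32.7% GC in G6pd2 to 65.7% in Gk, around a median of 52.7% over all promoters. These matches describe letters in a window and say nothing of binding.

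Levels are given as log2 intensity minus the array's own 75th percentile over all noncontrol probes, called scaled log2 below. Before scaling, that percentile was 7.13 and 6.68 in N, 7.48 and 7.56 in NAT, and 7.73 to 8.42 in T, and 57.7% to 76.3% of probes were well above background. No spot was saturated. A probe was called when limma gave a fold change of at least 2 and a false discovery rate (FDR) of at most 0.05 over the 47087 probes tested. Over all tested probes the log2 fold change had a median of 0.29 for T versus N, 0.23 for T versus NAT, and -0.02 for NAT versus N. In whole tissue, fewer cells of a type and less RNA per cell cannot be told apart.

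Of the 4 enzymes, Gapdh was called higher in T versus N, where 27.5% of all tested probes were called higher. Ldhal6b passed the same cutoff on its measured values, but it was not well above background in N, and no fold can be given for it there. In T versus NAT, Gapdh alone of the 4 was called higher, against 20.5% of all tested probes. In NAT versus N, none of the 4 was called and 0 of 47087 probes was called (0%), while 1992 probes had an unadjusted p under 0.05. The median log2 change of the 4 was 1.02, 0.87, and 0.12 in the 3 comparisons, or 0.34 in T versus N and -0.17 in NAT versus N with Ldhal6b set to its bound. The 0.87 for T versus NAT rests in part on Ldhal6b as measured on NAT2, where it was not well above background. Of the other 11 RefSeq-named probes, 7 were called higher and 0 lower in T versus N, with a median of 1.88, and 6 higher and 0 lower in T versus NAT. All these directions are relative to the 75th percentile, and when the mean of those 11 probes was subtracted instead, Gapdh, G6pd2, and Ldhal6b turned below 0 in both tumor comparisons.

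**Figure D1:**
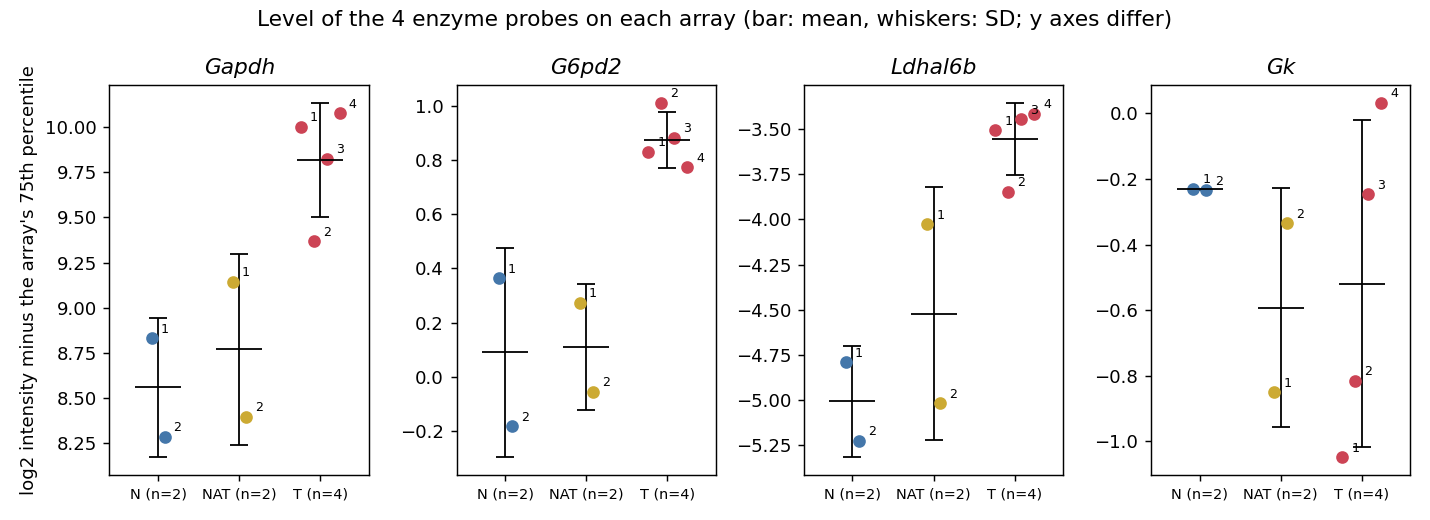
Scaled log2 level (log2 intensity minus the array's 75th percentile) of each enzyme on each array, with N (n = 2), NAT (n = 2), and T (n = 4) on the x axis. Points are arrays numbered by replicate, the bar is the group mean, and whiskers are the SD. The 4 T arrays lie above the N and NAT arrays for Gapdh, G6pd2, and Ldhal6b, and span them for Gk. The order reverses for Gapdh, G6pd2, and Ldhal6b on average when the mean of 11 other named probes is the reference.

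Gapdh had scaled log2 levels of 8.83 and 8.29 in N1 and N2, 9.14 and 8.40 in NAT1 and NAT2, and 10.002, 9.37, 9.82, and 10.08 in T1 to T4. All 4 tumors lay above all 4 nontumor glands, with T2 the lowest tumor and NAT1 the highest gland. The spots of 1 array agreed closely, with an SD between spots of 0.03 to 0.07. Relative to the 75th percentile, Gapdh rose by 1.26 in T versus N (SE 0.35, 95% interval 0.45 to 2.07, 2.39-fold, FDR 0.018), but the change was -0.53 (FDR 0.199) relative to the 11 other named probes and 2.39 (FDR 0.00083) with no scaling. In T versus NAT it rose by 1.05 (SE 0.35, 2.07-fold, FDR 0.0473), against -0.24 on that other scale. NAT and N differed by 0.21 (95% interval -0.72 to 1.15, FDR 0.923).

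The call in T versus N was lost without N2, at 0.99 (FDR 0.134), and with the replicate number as a fixed block, at 1.13 (FDR 0.063). In T versus NAT the FDR lay close to the threshold. There the block gave 0.91 (FDR 0.132), and the call was kept without NAT1 or T2 and lost without any other array, at 0.67 without NAT2 (FDR 0.309) and 0.96 to 1.05 without N1, N2, T1, T3, or T4. In the mice with both tissues, T1 exceeded NAT1 by 0.86 and T2 exceeded NAT2 by 0.97. By mean absolute difference over the 8 arrays, each gene centered on its own mean, the named genes closest to Gapdh were Hprt (0.24) and Tuba1b (0.29).

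Gapdh was also close to the bright end of the tumor arrays. Its mean intensity was 63970 and 31940 in N1 and N2, 100900 and 63770 in NAT1 and NAT2, and 251300, 227300, 240600, and 229600 in T1 to T4. The 4 tumors differed little on this unscaled measure, with an SD of 0.07 in log2 units against 0.32 after scaling. The brightest spot of any noncontrol probe read 276300 to 299300 on the T arrays and 328100 to 366300 on the others. Whether this bright end held down the tumor values of Gapdh was not tested.

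**Figure D2:**
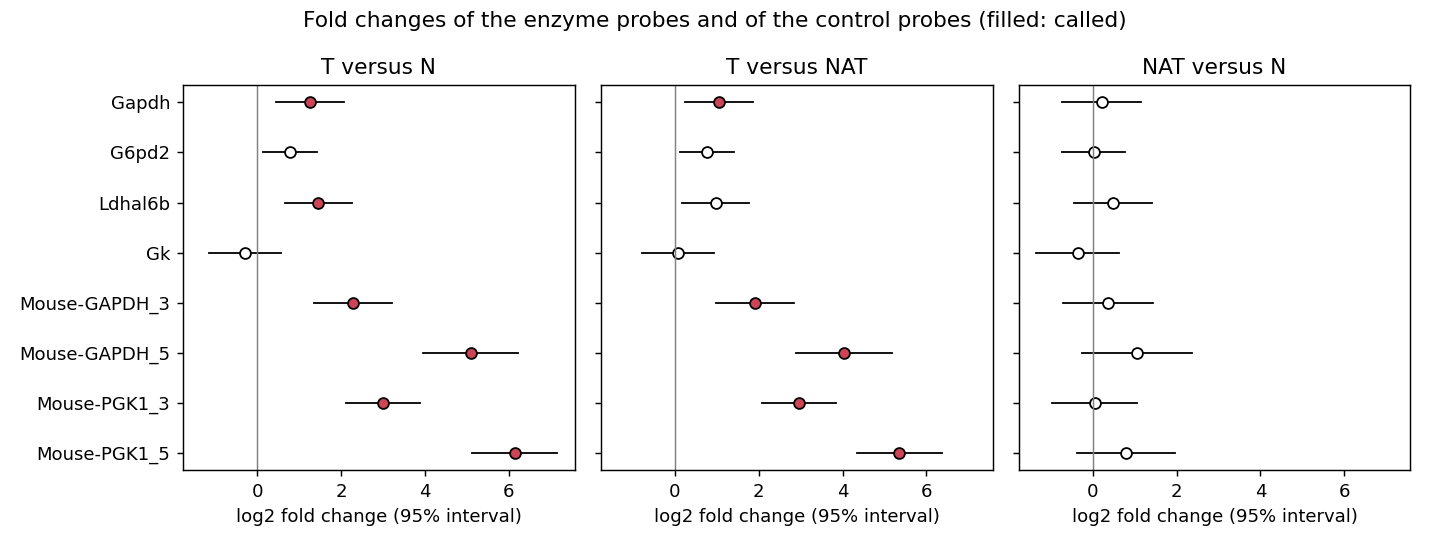
Log2 fold change with its 95% interval (x axis) for the 4 enzymes and for the mouse control probes of GAPDH and PGK1, in T versus N, T versus NAT, and NAT versus N, all relative to the 75th percentile. Filled points were called. Gapdh stands at 1.26 and its control probes at 2.29 (3′) and 5.09 (5′) in T versus N, and no interval clears 0 in NAT versus N. For Ldhal6b the values against N are differences of measured means, since N was not well above background, and Gapdh, G6pd2, and Ldhal6b turn below 0 in both tumor comparisons relative to 11 other named probes.

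The arrays carry control probes named for the 3′ and 5′ ends of GAPDH and PGK1, printed as 10 spots each. They give a second reading of Gapdh. The 3′ probe of mouse GAPDH had scaled log2 levels of 7.74 and 7.07 in N, 8.23 and 7.31 in NAT, and 9.98, 9.09, 9.77, and 9.92 in T1 to T4. The 5′ probe read 4.67 and 3.49 in N, 5.85 and 4.43 in NAT, and 9.57, 8.75, 9.26, and 9.12 in T1 to T4. On both probes every tumor lay above every nontumor gland. The T versus N change was 2.29 (SE 0.40, FDR 0.00237) for the 3′ probe and 5.09 (SE 0.50, FDR 0.000184) for the 5′ probe, both larger than the 1.26 of the Gapdh probe. In T versus NAT the changes were 1.92 (FDR 0.00784) and 4.04 (FDR 0.000807), and neither probe was called in NAT versus N.

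For PGK1, the 3′ probe read 5.30 and 5.99 in N, 5.64 and 5.74 in NAT, and 9.18, 7.98, 8.74, and 8.68 in T1 to T4. The 5′ probe read -2.40 and -2.49 in N, -1.49 and -1.82 in NAT, and 4.57, 3.52, 3.81, and 2.90 in T1 to T4. Its mean intensity was only 26.55 and 18.16 in N and 63.33 and 53.5 in NAT, against 1584 to 5804 in T. The size of its changes therefore depends on the background correction. Again no tumor overlapped a gland. The T versus N changes were 3.00 (SE 0.38, FDR 0.000551) and 6.15 (SE 0.44, FDR 7.05e-05), and in T versus NAT they were 2.96 (FDR 0.00103) and 5.35 (FDR 0.00018). Unlike the Gapdh probe, all 4 control probes stayed above 0 in both tumor comparisons relative to the 11 other named probes, from 0.50 for the GAPDH 3′ probe to 4.36 for the PGK1 5′ probe in T versus N, and with normexp, the median, or no scaling.

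Differences between probes of the same array do not depend on the scaling, and 7 such pairs were compared between the 4 T arrays and the 4 N and NAT arrays by a two-sided exact permutation test over 70 splits. That test treats the 8 arrays as exchangeable, although by title NAT1 and T1 share a mouse, as do NAT2 and T2. T against N alone has 15 splits and allows no p below 0.0667. Over the 70 splits the smallest possible p is 0.0286, which is 0.04 after adjustment over the 7 pairs when 5 of them reach it. The GAPDH 5′ minus 3′ difference follows from the differences of the Gapdh probe from the GAPDH 3′ and 5′ probes, so these pairs are not independent. The Gapdh probe exceeded the GAPDH 3′ probe by 1.09 and 1.22 in N, 0.91 and 1.09 in NAT, and 0.02, 0.28, 0.06, and 0.16 in T1 to T4. That difference was 0.95 lower in the tumors (exact p = 0.0286, adjusted 0.04), from 1.08 ± 0.13 (SD, n = 4) to 0.13 ± 0.11 (SD, n = 4). Against the GAPDH 5′ probe the difference fell by 3.41, from 4.06 ± 0.62 to 0.64 ± 0.22 (SD, n = 4 each, exact p = 0.0286, adjusted 0.04). The readings named for 1 transcript thus changed by unequal amounts between glands and tumors. On the T arrays the GAPDH 3′ probe had mean intensities of 187700 to 248000, close to the bright end like the Gapdh probe. The 5′ probe had 118500 to 185900 there. Whether the bright end altered these differences, or the GAPDH 5′ minus 3′ difference, was not tested.

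The 5′ signal moved with the group relative to the 3′ signal in both control transcripts. For GAPDH, the 5′ minus 3′ difference was -3.07 and -3.58 in N, -2.38 and -2.89 in NAT, and -0.42, -0.34, -0.51, and -0.80 in T1 to T4, 2.46 higher in the tumors (exact p = 0.0286, adjusted 0.04). For PGK1 it was -7.70 and -8.48 in N, -7.13 and -7.56 in NAT, and -4.62, -4.46, -4.93, and -5.78 in T1 to T4, 2.77 higher in the tumors (exact p = 0.0286, adjusted 0.04). With normexp background correction, whose offset of 50 exceeds the PGK1 5′ signal in N, the PGK1 shift was 1.28 and the GAPDH shift 2.43. Every tumor lay above every gland on both measures. Such a difference is used as a sign of RNA integrity, and its part in the changes of the 4 enzymes was not tested.

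**Figure D3:**
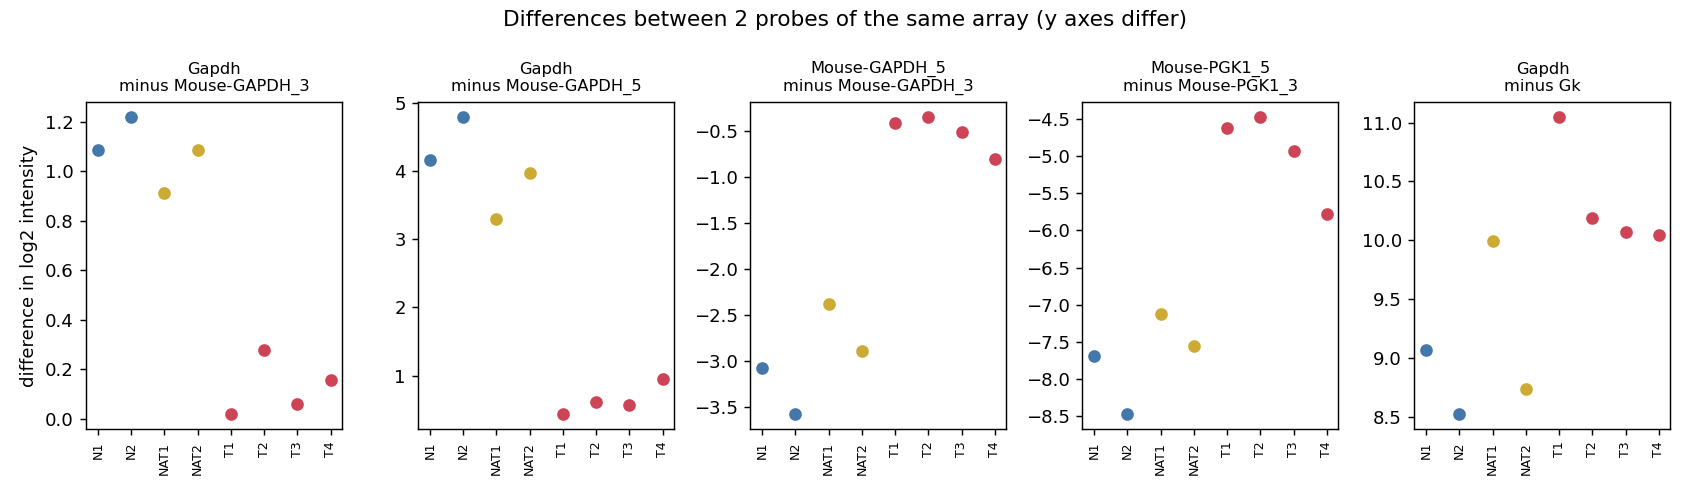
Difference in log2 intensity between 2 probes of the same array (y axis, scales differ between panels) for N1, N2, NAT1, NAT2, and T1 to T4 (x axis), each point 1 array. The Gapdh probe exceeds the GAPDH 3′ probe by 0.91 to 1.22 on the gland arrays and by 0.02 to 0.28 on the tumor arrays, while the 5′ minus 3′ differences of GAPDH and PGK1 are higher on all tumor arrays, and Gapdh minus Gk is highest in T1.

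G6pd2 had scaled log2 levels of 0.36 and -0.18 in N1 and N2, 0.27 and -0.06 in NAT1 and NAT2, and 0.83, 1.01, 0.88, and 0.77 in T1 to T4. The tumors lay close together and above every gland, and the N and NAT arrays overlapped. Against N the difference was 0.78 (SE 0.28, 95% interval 0.14 to 1.43, 1.72-fold, FDR 0.0463), which passed the FDR threshold and missed the fold change, and against the 11 other named probes it was -1.0004 (FDR 0.0392). With no scaling it was 1.92 (FDR 0.00345, called), and with the fixed replicate block 0.83 (FDR 0.157). It ranged from 0.51 without N2 (FDR 0.291) to 1.06 without N1 (FDR 0.0525), and its FDR was above 0.05 without any 1 of the N or T arrays. Against NAT it was 0.77 (SE 0.28, FDR 0.0627), and NAT and N differed by 0.02 (95% interval -0.73 to 0.77, FDR 0.993).

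Within the mice with both tissues, T1 exceeded NAT1 by 0.56 and T2 exceeded NAT2 by 1.07. Between 16 and 20 spots were used per array, with an SD between spots of 0.04 to 0.22. The closest named genes were Ppia (0.33) and Hprt (0.35). Gapdh minus G6pd2 was 8.94 ± 0.42 in the tumors and 8.57 ± 0.20 in the glands (SD, n = 4 each), and the difference of 0.38 had an exact permutation p of 0.229 (adjusted 0.267).

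Ldhal6b lay near the limit of detection. Its mean intensity was 5.07 and 2.73 in N1 and N2, 10.9 and 5.84 in NAT1 and NAT2, and 21.6, 23.9, 24.4, and 19.97 in T1 to T4. Spots well above background numbered 0 of 17 and 0 of 19 in N, 10 of 20 in NAT1, 1 of 20 in NAT2, and 19 of 20, 18 of 19, 18 of 18, and 19 of 20 in T1 to T4. The probe therefore entered the test only through the tumors and NAT1, and its N level is known only as not well above background.

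On the scaled log2 measure, Ldhal6b read -4.79 and -5.23 in N, -4.03 and -5.02 in NAT, and -3.51, -3.85, -3.44, and -3.41 in T1 to T4. All tumors stood above all glands, with NAT1 nearest to them. The measured means of T and N were -3.55 and -5.01 (limma FDR 0.00928). That FDR compares measured values only and gives no fold. The tumor mean does not exceed -3.44, the lowest signal well above background averaged over the 2 scaled N arrays. Without N2 the measured means differed by 1.24, with N1 alone standing for N. The measured values of T and NAT differed by 0.97 (SE 0.35, FDR 0.0588) and were not called apart, with 1 of the 2 NAT arrays well above background. Without NAT1, no difference is read, since NAT2 alone then stands for NAT with 1 of 20 spots well above background. The sign of both tumor differences turned with the 11 named probes as reference, to -0.33 against N and -0.31 against NAT. With another background correction (normexp) they read -0.45 and -0.14. That correction added an offset of 50 to every intensity, more than the mean Ldhal6b signal on any array, so these 2 signs do not show its direction.

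Ldhal6b was also set beside the 15 probes that the array annotation names as negatives. On each T array and on NAT1, 0 of the 15 read as high as Ldhal6b, while 2 did on N1, 4 on N2, and 2 on NAT2. On the T arrays it stood 0.68 to 0.94 log2 units above the brightest negative. Neither its closest named genes nor Gapdh minus Ldhal6b, 1 of the 7 pairs, is used as a result, since Ldhal6b was not well above background on 3 of the 4 gland arrays.

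Gk was the enzyme whose tumors overlapped the glands. Its scaled log2 levels were -0.23 in both N1 and N2, -0.85 and -0.33 in NAT1 and NAT2, and -1.05, -0.81, -0.25, and 0.03 in T1 to T4. The tumors spanned the whole range of the glands, with T1 lowest and T4 highest of all arrays. The difference was -0.29 against N (SE 0.37, 95% interval -1.14 to 0.57, FDR 0.541), 0.07 against NAT (95% interval -0.78 to 0.93, FDR 0.892), and -0.36 in NAT versus N (FDR 0.89). The value against N moved to -0.70 with the replicate number and -0.76 with the slide row as a fixed block. It depended on the scaling, at -2.07 (FDR 0.00474, called) relative to the 11 other named probes and 0.84 (FDR 0.083) with no scaling, and against NAT it was -1.21 (FDR 0.0638) relative to those 11. T1 lay 0.20 below NAT1, and T2 0.48 below NAT2.

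A fixed set of Gk spots read low. At 5 of the 20 positions, within rows 32 to 136 of 384 and columns 96 to 138 of 164 of the array, where no other Gk spot lies, the mean signal was 1.28 to 2.21-fold below that of the other 15 on every array. The lowest of the other 15 still read below the highest of the 5 on N1 (88.7 against 101) and T4 (198 against 199.9). All 5 were flagged as outliers by the scanner software on T2 and T3, 3 on N2, 1 on T1 and on T4, and 0 on N1, NAT1, and NAT2, while 0 of the other 15 were flagged on any array. Gk means therefore rest on different spots on different arrays. With only the 15 spots unflagged on all 8 arrays, the T versus NAT difference turned from 0.07 to -0.08 (FDR 0.881), neither of them called. The 5 positions were singled out after their values were seen.

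**Figure D4:**
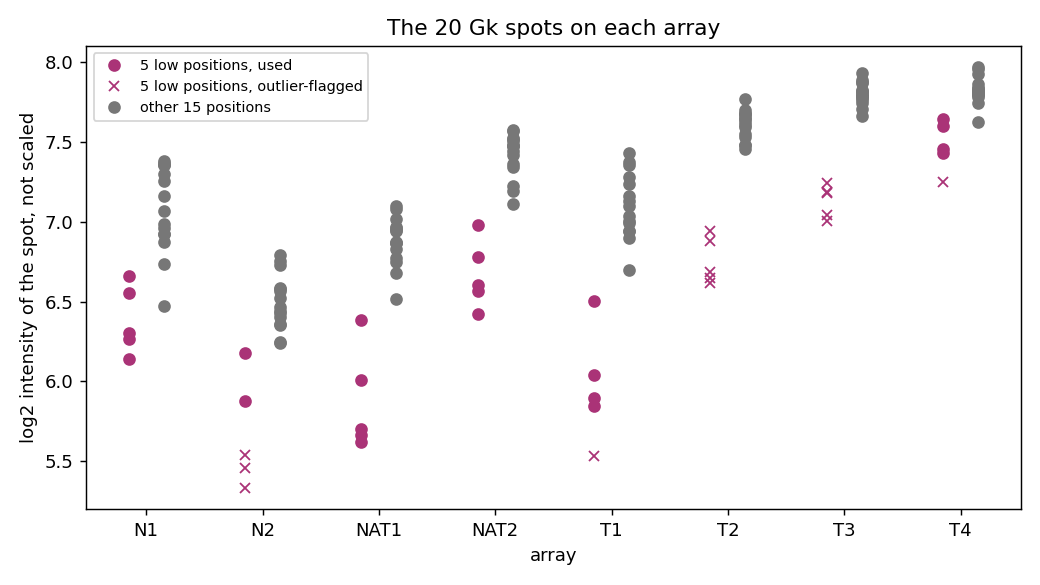
Unscaled log2 intensity (y axis) of the 20 Gk spots on each array (x axis). Purple marks the 5 low positions, with crosses where the scanner software flagged the spot as an outlier, and gray the other 15. The purple points sit below the mean of the gray points on all 8 arrays, and all 5 are crosses on T2 and T3.

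Within the arrays, Gapdh exceeded Gk by 9.06 and 8.52 in N, 9.995 and 8.73 in NAT, and 11.05, 10.18, 10.07, and 10.04 in T1 to T4. The difference was 1.26 higher in the tumors (exact permutation p = 0.0286, adjusted 0.04), and all 4 tumors lay above all glands, NAT1 by a small margin. It missed the threshold when any 1 tumor array was left out, with adjusted p values of 0.0667 to 0.08, and kept an adjusted p of 0.04 without any 1 of the gland arrays. The named genes closest to Gk were Ppia (0.33) and B2m (0.37).

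**Figure D5:**
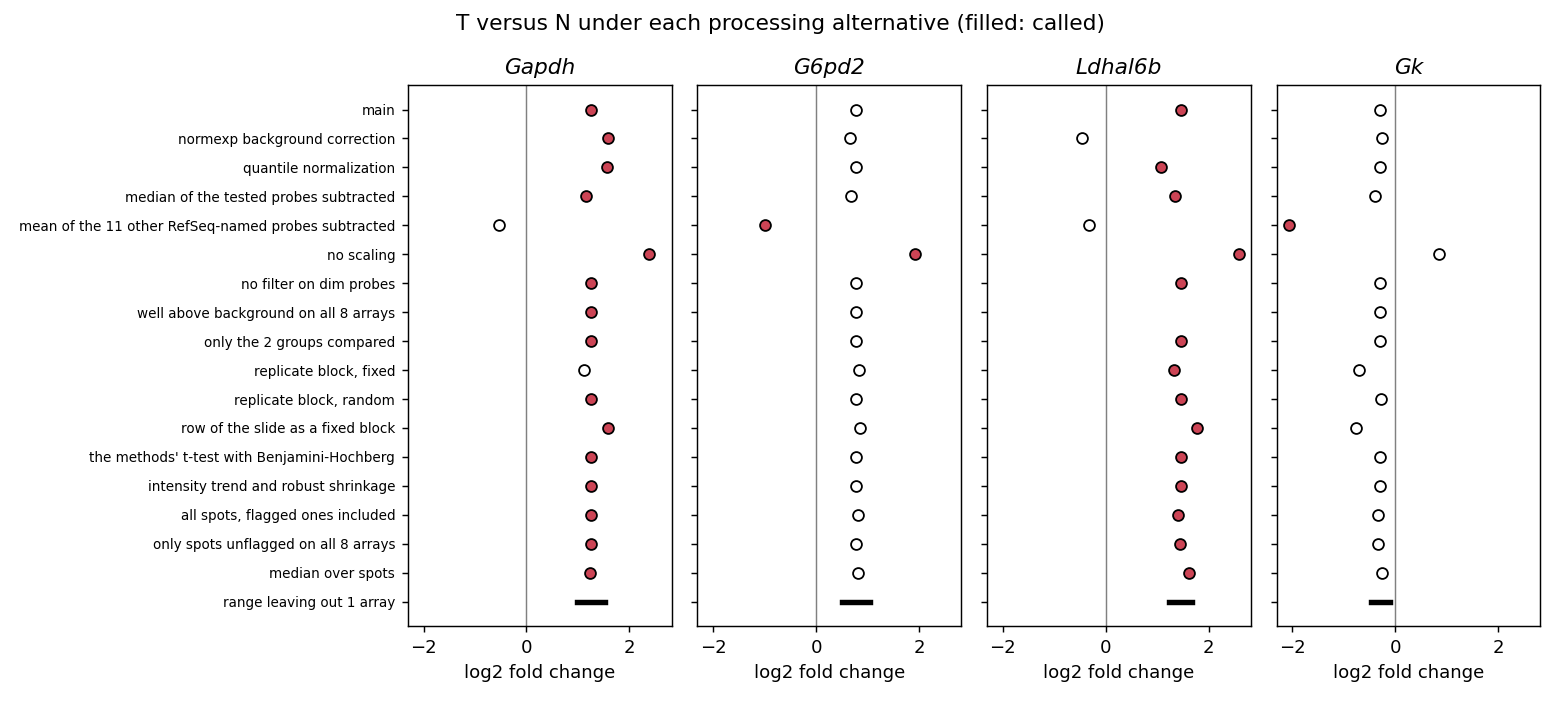
Log2 change in T versus N (x axis) of each enzyme under each processing alternative (y axis), with filled points for calls and a bar for the range when 1 array is left out. Gapdh, G6pd2, and Ldhal6b lie above 0 except with 11 other named probes as reference (-0.53, -1.0004, and -0.33) and, for Ldhal6b, with normexp (-0.45), while Gk lies below 0 except with no scaling (0.84). Ldhal6b values are differences of measured means, and it has no point where all 8 arrays had to be well above background. Normexp adds an offset of 50, more than the mean Ldhal6b signal on any array.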

How the data were processed

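RNA of 8 mouse salivary samples was labeled with Cy3 by random priming and hybridized to Arraystar Mouse LncRNA/mRNA arrays, all on 1 slide in 1 scan. The authors deposited linear spot intensity values from which Agilent Feature Extraction 11.0.1.1 (per the labels) had taken the background, with no normalization between arrays. A deposited table of log2 values holds none of the 4 probes and was not used. Files were grouped by sample titles. For NAT2 the source text names the gland beside tumor 1, and for T2 the gland beside tumor 2, against their titles.

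Control spots were dropped, as were spots flagged as outliers, log2 intensities of a probe's spots were averaged, and each array's 75th percentile was subtracted. Probes with a value on all 8 arrays and with at least 0.5 of their spots well above background in 2 or more arrays entered limma 3.58.1 (R 4.3.3), where lmFit and eBayes used all 3 groups and Benjamini-Hochberg adjustment ran within each comparison. The cutoff is the study's. The GAPDH and PGK1 control probes were added to the same fit. Steps were tested on simulated data. Exact permutation tests, promoter searches, and figures used Python 3.11.15. RefSeq accessions named 15 probes, all matched to a symbol. Named genes were the 4 enzymes, the control probes, and the 2 other named genes closest to each enzyme, left out for Ldhal6b. The members and lists were chosen with earlier results of these data known. The number of arrays limits the precision, and the arrayed NAT and T tissues of a mouse are not independent.

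By their titles and the study, NAT1 and T1 are tissues of 1 mouse and NAT2 and T2 of another, which the source text of NAT2 and T2 contradicts. The labels name N1 and N2 as littermates. Deviations from group means correlated across probes at -0.0949 and -0.249 for these NAT and T pairs, 0.149 for N with NAT, and 0.0205 and 0.0785 for N with T. In the block, T3 and T4 have numbers of their own, so the 6 paired arrays alone set the differences. Alternatives covered background correction, scaling, filters, the replicate block, the slide row, the methods' t-test, spot averaging (chosen after seeing the data), and leaving out each array.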

Additional observations from a re-analysis of the deposited data

How the results depend on the processing

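The replicate block left Gapdh uncalled in T versus N when fixed (1.13) and in T versus NAT when fixed or random (0.91 and 1.05), when fixed moved Gk in T versus N to -0.70 and turned it in T versus NAT to -0.34, and changed no other call. Subtracting the mean of the 11 other named probes moved the median of all probes in T versus N from 0.29 to -1.50, its called probes to 2979 higher and 26345 lower from 12948 and 9903, and turned Gapdh to -0.53, -0.24, and -0.29 (T versus N, T versus NAT, NAT versus N), G6pd2 to -1.0004 (now called lower), -0.52, and -0.48, Ldhal6b to -0.33, -0.31, and -0.01 (-0.0125), and Gk to -2.07 (now called) and -1.21 in the tumor comparisons. Without scaling, the median was 1.42 (25434 higher, 4062 lower), Gapdh stood at 2.39 against N, G6pd2 was called at 1.92 and 1.28 and Ldhal6b at 1.49 in T versus NAT (NAT2 not well above background), and Gk turned to 0.84 against N and 0.26 (0.255) in NAT versus N. Normexp added an offset of 50 to every intensity, more than the mean Ldhal6b signal on any array, so its signs for Ldhal6b show no direction. It moved the median to -0.39 (7130 higher, 7570 lower) and left 14700 and 10771 probes called in the tumor comparisons, against 22851 and 17156. It turned Ldhal6b to -0.45, -0.14, and -0.31 and G6pd2 in NAT versus N to -0.0012. It turned Gapdh minus Ldhal6b, a difference from a probe undetected on most gland arrays, to 1.68, and moved the PGK1 5′ minus 3′ difference from 2.77 to 1.28 and Gapdh minus G6pd2 from 0.38 to 0.71 (adjusted p = 0.0571). The methods' t-test after Benjamini-Hochberg called 9582 in T versus NAT.

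Gapdh in T versus NAT was also uncalled with the median subtracted (0.95), no filter, only 2 groups, or the t-test (1.05 in each). The slide row as a block called Ldhal6b in T versus NAT at 1.08 (with the same limit) and moved Gk in T versus N to -0.76. Gk in T versus NAT turned to -0.0229 with the median, -0.08 with the slide row (-0.0845), -0.05 with all spots (-0.0458), -0.0759 with unflagged spots, and -0.074 with the median over spots. T against N alone, where 15 splits allow no p below 0.0667, gave 1.55 for Gapdh minus Gk, -1.03 and -3.84 for Gapdh minus the GAPDH 3′ and 5′ probes, and 2.81 and 3.14 for the 5′ minus 3′ differences. The causes were not tested.

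Leaving out 1 array gave the following ranges. Gapdh ran from 0.99 to 1.53 in T versus N, from 0.67 (without NAT2) to 1.42 in T versus NAT, where it stayed called only without NAT1 or T2, and from -0.16 to 0.59 in NAT versus N. G6pd2 ran from 0.51 (without N2) to 1.06 in T versus N and from -0.25 to 0.29 in NAT versus N. The measured means of Ldhal6b, which give no fold against N, differed by 1.24 (without N2) to 1.68 in T versus N and by -0.0096 to 0.98 in NAT versus N. In T versus NAT they differed by 0.48 (0.475) to 1.47 (without NAT1, against NAT2 alone, not well above background). Gk ran from -0.47 (without T4) to -0.11 (without T1) in T versus N, from -0.19 to 0.33 in T versus NAT, and from -0.62 to -0.10 in NAT versus N. Calls numbered 7838 (without NAT2) to 17424 in T versus NAT and 0 to 161 (without NAT2) in NAT versus N. Gapdh minus Gk ran from 1.02 to 1.57, Gapdh minus G6pd2 from 0.26 (without T4) to 0.57 (without T2), and Gapdh minus Ldhal6b from -0.15 (-0.148) to 0.0022, the last with the limit given for Ldhal6b.

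The deposited table was not run, since it holds none of the 4 probes, and Ldhal6b gave no value with all 8 arrays required above background.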

Other observations

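The arrays also carry human and rat control probes for GAPDH and PGK1. Of all 12 human, rat, and mouse probes, 11 had every T array above every N and NAT array on the scaled log2 measure. The exception was the rat PGK1 3′ probe, which read -2.64 and -3.20 in N, -3.54 and -2.62 in NAT, and -2.29, -3.08, -2.29, and -1.90 in T1 to T4. That probe was dim, with mean intensities of 11.16 to 30.73 in the glands and 40.59 to 57.04 in the tumors. Before scaling, every tumor lay above every gland on it too (log2 5.34 to 5.83 against 3.48 to 4.94). The human PGK1 5′ probe was also dim, at 6.22 and 5.61 in N, where the brightest negative read 10.96 and 5.325. These orders were not tested, and the probes of 1 transcript share their arrays.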
